A study of Mus musculus with 4 samples.

Results

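The 10 genes described here build the actin core of the microvilli of intestinal epithelium or hold neighbouring microvilli together. They were taken by name, for their roles (Vil1, Espn, Pls1, Eps8, Myo1a, Ezr, Cdhr2, Cdhr5, Ush1c and Myo7b), through a rule that uses no measured value, though the list was drawn up with earlier results of these data known. All 10 had a probe on the array and were among the 14395 genes tested, and their signals were well above background on all 4 arrays. Between genotypes, 0 of the 10 passed the test. For 6 of them the wider gap lay between the 2 arrays of the knockout, and for 4 between those of the wild type.

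Small intestine of wild-type mice was compared with that of mice lacking the Cyp3a cluster (Cyp3a-/-), a group of neighbouring genes for cytochrome P450 enzymes that oxidise drugs and steroids. Each genotype had 2 arrays, wild type 1 and 2 and knockout 1 and 2, and the study describes 2 independent experiments with different animals. Total RNA of the tissue, carrying the dye Cy3, was hybridised to 1-colour Agilent arrays. The strain, the age, the sex, the part of the intestine taken, any treatment, and how many animals gave the RNA of an array are not given in the sources used here. The p-values therefore measure the spread between these samples, and 2 arrays per genotype limit the precision of every value.

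A microvillus is a finger of cell membrane around a bundle of parallel actin filaments, and the packed microvilli of an absorptive enterocyte form the brush border, where nutrients are digested and taken up. Villin, espin and plastin-1 cross-link the filaments, EPS8 sits at their tips, and myosin-1a and ezrin tie the bundle to the membrane. At the tips, the protocadherins CDHR2 and CDHR5 reach across and bind those of the next microvillus. Inside the cell they are held by a complex of the scaffolds USH1C (harmonin) and ANKS4B, the motor MYO7B and its light chain CALML4.

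The deletion was seen in Cyp3a11, a main P450 of mouse liver and gut, whose level was 5.05 on wild type 1, 5.78 on wild type 2, -5.77 on knockout 1 and -4.52 on knockout 2. On both knockout arrays its signal failed to stand well above background, and it was at least 920-fold lower there. That bound sets the knockout arrays at the dimmest signal measured well above background, and was not itself tested. The measured difference, which uses the dim knockout signals, was -10.56 (log2, knockout minus wild type, limma's adjusted p = 0.00236). A level here is the log2 of the signal minus that of the 75th percentile on its array, which was a signal of 226 and 356 on the wild-type arrays and of 322 and 175 on the knockout arrays. Wild type 2 and knockout 1 shared a slide, whereas wild type 1 and knockout 2 each lay on another. Across genes the correlation was 0.948 between the knockout arrays and 0.979 between the wild-type arrays. Knockout 1 was closer to both wild-type arrays than to knockout 2, with 0.966 for wild type 1 and 0.962 for wild type 2.

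Markers of several cell types differed between the 2 knockout arrays. Of 20 absorptive enterocyte markers, 18 were on knockout 1 above the wild-type range, against 37.9% of all genes, and 13 on knockout 2 below it, against 26.6%. Their summed linear level was 1299 and 851 on wild type 1 and 2, 1715 on knockout 1 and 940 on knockout 2. Smooth muscle markers ran the other way. All 10 were below both wild-type arrays on knockout 1, against 34.4% of all genes, and 9 were above both on knockout 2, against 33.6%, with summed levels of 193, 220, 110 and 330 in the same order. Of 10 pan-epithelial markers, 8 were on knockout 1 above the wild-type range and 4 on knockout 2 below it, against the same shares of all genes as for the enterocyte markers. This list was mixed, as 1 of the 10 was on knockout 1 below the range, against 34.4% of all genes, and 3 were on knockout 2 above it, against 33.6%. Their summed levels were 312, 287, 347 and 338. The part of tissue makeup in the values of the microvillus genes was not tested, and in bulk tissue fewer cells of a type and less RNA per cell cannot be told apart.

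Villin, espin and plastin-1, which bundle the actin core, held the gene with the widest gap between the knockout arrays, Pls1. They also held 1 with a narrow gap on its brightest probe, Espn. The Vil1 level was 6.00 on wild type 1, 5.56 on wild type 2, 6.71 on knockout 1 and 5.43 on knockout 2. Thus knockout 1 was the highest and knockout 2 the lowest of the 4 arrays, and the wild-type arrays lay between them. The mean was 5.78 ± 0.31 (SD, n = 2) in the wild type and 6.07 ± 0.90 (SD, n = 2) in the knockout. The difference of 0.29 (log2, knockout minus wild type) had a standard error (SE) of 0.49 and limma's adjusted p = 1.00. Its 95% interval ran from -0.91 to 1.49, so a 2-fold rise, which is 1 on this scale, lay inside it.

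The Pls1 level was 1.50 on wild type 1, 1.60 on wild type 2, 3.09 on knockout 1 and 0.84 on knockout 2. The wild-type arrays were nearly level while the knockout arrays stood 4.78-fold apart, on either side of them. Plastin-1, also called fimbrin, packs the filaments tightly in the core. Its difference of 0.42 was the largest of the 10 genes, with an SE of 0.69 and a 95% interval from -1.27 to 2.10. Without knockout 2, the difference was 1.55 and limma's adjusted p = 0.0175, in a fit that called 433 of 14395 genes (3.01%) and assumed that the lone knockout array varies like the wild-type arrays. Without knockout 1 it was -0.71 with an adjusted p of 1.00. The direction thus differed with the knockout array used.

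The Espn level was 2.39 on wild type 1, 1.56 on wild type 2, 2.40 on knockout 1 and 1.77 on knockout 2. Wild type 1 and knockout 1 were level and high, and wild type 2 and knockout 2 were low, so the genotypes overlapped. Espin makes bundles longer. Its difference was 0.11 with an SE of 0.39, smaller than the gap of 0.83 between the 2 wild-type arrays.

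EPS8 caps filaments and regulates microvillus length. The Eps8 level was 1.31 on wild type 1, 1.83 on wild type 2, 2.55 on knockout 1 and 0.95 on knockout 2. Knockout 1 was highest and knockout 2 lowest, 3.02-fold apart. Between genotypes the difference was 0.18 (SE 0.54, 95% interval -1.14 to 1.50).

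Myosin-1a and ezrin, which link the core to the membrane, had the narrowest gaps between the knockout arrays. Myo1a read 7.12 on wild type 1, 6.15 on wild type 2, 6.65 on knockout 1 and 6.84 on knockout 2. It was the single member with knockout 1 below knockout 2, and both knockout arrays lay inside the range of the wild type. The wild-type arrays stood 1.95-fold apart, the widest wild-type gap among the 10 genes. Its difference between genotypes was 0.11 with an SE of 0.43.

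Ezr read 4.79 on wild type 1, 4.27 on wild type 2, 4.62 on knockout 1 and 4.48 on knockout 2. Again both knockout arrays fell between the wild-type arrays. Ezrin binds actin at its tail and membrane proteins at its head. The difference of 0.020 had the smallest SE of the 10 genes, 0.32, and a 95% interval from -0.76 to 0.80.

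The adhesion genes fell into both patterns. Cdhr2 read 6.82 on wild type 1, 6.41 on wild type 2, 7.26 on knockout 1 and 6.16 on knockout 2. Cdhr5 read 3.80 on wild type 1, 3.49 on wild type 2, 4.90 on knockout 1 and 2.89 on knockout 2. For both protocadherins, knockout 1 was highest and knockout 2 lowest, with the knockout arrays 2.13-fold apart for Cdhr2 and 4.01-fold apart for Cdhr5. The differences between genotypes were 0.097 (SE 0.47) for Cdhr2 and 0.25 (SE 0.64) for Cdhr5, both within the spread of the knockout arrays.

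Myo7b, the motor that carries the complex towards the tips, read 2.54 on wild type 1, 1.90 on wild type 2, 2.73 on knockout 1 and 1.65 on knockout 2. It followed the protocadherins in order, with knockout 1 highest and knockout 2 lowest. Its difference of -0.033 (SE 0.44) was the single negative one among the 10 genes. Ush1c, the scaffold that joins the motor to the protocadherin tails, read 4.78 on wild type 1, 4.03 on wild type 2, 4.59 on knockout 1 and 4.23 on knockout 2. As for Ezr and Myo1a, wild type 1 was highest, wild type 2 lowest and the knockout arrays between them. Its difference was 0.0076 (SE 0.36), the closest to 0 of the 10 genes.

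**Figure D1:**
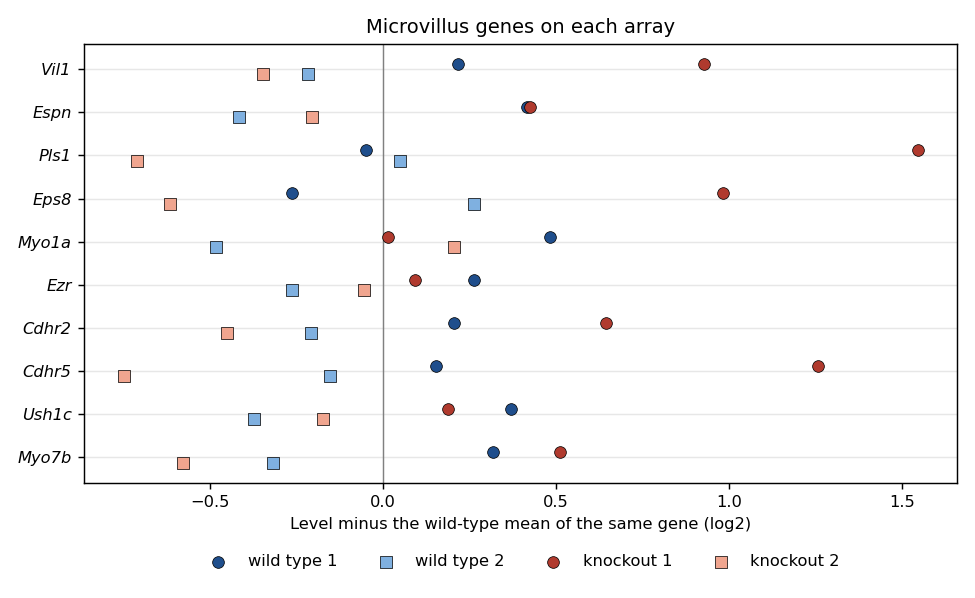
Level of each gene on each array minus the gene's wild-type mean (log2, horizontal axis), with wild-type arrays in blue and knockout arrays in red. Knockout 1 lies to the right and knockout 2 to the left of both wild-type arrays for Vil1, Pls1, Eps8, Cdhr2, Cdhr5 and Myo7b, while both knockout arrays lie between the wild-type arrays for Myo1a, Ezr and Ush1c.

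The plot of levels by array shows the order of the arrays gene by gene, with each gene set at its own wild-type mean so that brightness does not enter. Of the 10 genes, 0 had limma's adjusted p under 0.05, against 0.0417% of all genes tested (6 of 14395). None had an unadjusted p under 0.05, against 63 of 14395 over all genes. Unadjusted p-values of the 10 genes ran from 0.568 to 0.984. The difference was positive for 9 genes and negative for 1, with a median of 0.11 against 0.037 over all genes. The members' median exceeded that of all genes by 0.073, less than the spread of 0.58 (pooled SD) between arrays of a genotype in the members' median, so no direction between genotypes is given for the group. Scaling by array medians or by marker genes shifts every gene of an array alike and left that excess at 0.073. The number of positive differences nevertheless went from 9 to 10 with array medians, 3 with pan-epithelial markers and 1 with absorptive enterocyte markers. After quantile normalization the excess was 0.0081, and after normexp background correction it was -0.014. With 1 array left out it ran from -0.43 without knockout 1 to 0.55 without knockout 2.

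**Figure D2:**
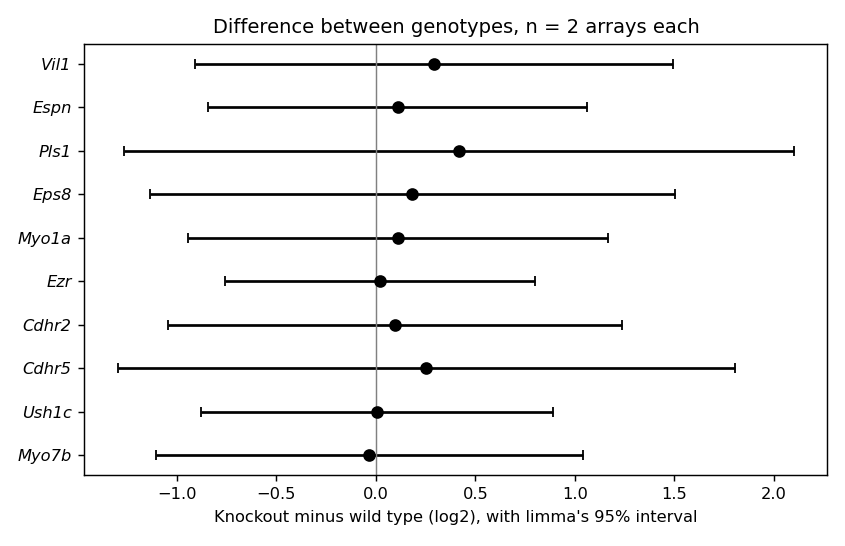
Difference between genotypes for each gene (knockout minus wild type, log2, horizontal axis), as the difference of the means of 2 arrays each, with limma's 95% interval as bars. Every interval includes 0, and the widest is that of Pls1, from -1.27 to 2.10.

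The plot of differences shows how wide these intervals were. The narrowest was that of Ezr, and the 10 intervals together ran from -1.30 to 2.10, so a 2-fold change in at least 1 direction was inside those of 8 genes, with Ush1c and Ezr as the exceptions. A p-value above the threshold does not show that the genes were alike in both genotypes.

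On the brightest probes, none of the 10 genes had both knockout arrays above both wild-type arrays, against 8.66% of all genes. None had both below on those probes, against 6.09%. Knockout 1 was above both wild-type arrays for 7 genes, against 37.9% of all genes. Knockout 2 was below both for 6 genes, against 26.6%. Both held for 6 genes, against 16.3% of all genes, and these were Vil1, Pls1, Eps8, Cdhr2, Cdhr5 and Myo7b. The same 6 genes had knockout arrays at least 1 log2 unit apart, against 19.5% of all genes. No member had wild-type arrays that far apart, against 5.37% of all genes.

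Across the 10 genes, the median gap between the knockout arrays was 1.09 in size and that between the wild-type arrays 0.52. The gap between the knockout arrays was the wider of the pair for 6 genes and the narrower for 4, which were Espn, Myo1a, Ezr and Ush1c. Knockout 1 exceeded knockout 2 for 9 genes, against 6840 of 14395 over all genes and 20 of 20 absorptive enterocyte markers. Wild type 1 exceeded wild type 2 for 8, against 7762 over all genes and 17 of those markers. In the pair that shared a slide, knockout 1 exceeded wild type 2 for all 10 genes, by 0.36 for Ezr up to 1.50 for Pls1. The median was 0.84, against 0.080 over all genes and 1.13 over the enterocyte markers. That pair is 1 array against 1 and has no test.

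**Figure D3:**
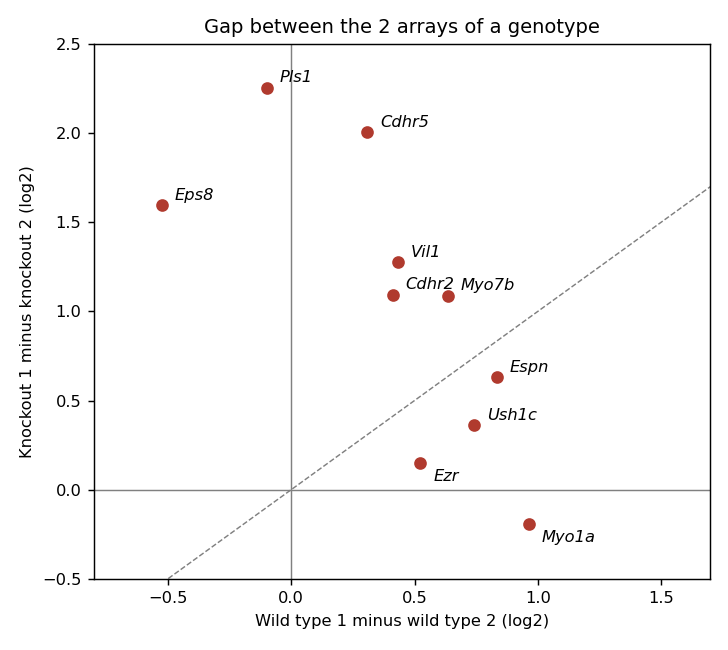
Gap between the 2 knockout arrays (vertical axis) against the gap between the 2 wild-type arrays (horizontal axis), both in log2, 1 point per gene, with a dashed line where both gaps are equal. Pls1, Cdhr5 and Eps8 are at the top, 2.26, 2.00 and 1.60 apart in the knockout, and Myo1a is at the lower right, with a gap of -0.19 in the knockout and 0.97 in the wild type.

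The plot of gaps separates the 6 genes with a wide knockout gap, above the dashed line, from Espn, Ush1c, Ezr and Myo1a below it. The upper group held the bundlers Vil1 and Pls1, the tip protein Eps8 and 3 of the 4 adhesion genes. Below the line were both membrane linkers, the scaffold Ush1c and, on its brightest probe only, the bundler Espn. Cdhr2 was closest to the median profile of the members, with a root mean square distance of 0.034 over the 4 arrays, followed by Myo7b with 0.075. Pls1 was farthest, with 0.50.

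Espn, Eps8 and Ush1c each had a further probe. The further Espn probe read 2.18 on wild type 1, 1.57 on wild type 2, 2.52 on knockout 1 and 1.36 on knockout 2, with a difference of 0.067. On that probe knockout 1 was highest and knockout 2 lowest, in the order of Vil1, and the knockout arrays lay farther apart than the wild-type arrays. On the probe used above, knockout 2 did not fall below both wild-type arrays and the wild-type gap was the wider. The place of Espn among the genes with a narrow knockout gap thus depends on the probe. The further Eps8 probe read -0.68 on wild type 1, -0.37 on wild type 2, 0.18 on knockout 1 and -0.77 on knockout 2, in the same order as the probe used. A probe for another Ush1c transcript read -0.34 on wild type 1, -1.26 on wild type 2, -1.27 on knockout 1 and -1.50 on knockout 2. Its difference was -0.58 (SE 0.39, limma's adjusted p over all probes = 1.00), against 0.0076 on the probe used, so the Ush1c probes disagreed in size and sign. On the further Ush1c probe both knockout arrays were below both wild-type arrays, knockout 1 only just (-1.266 against -1.262 on wild type 2). The overlap of the genotypes for Ush1c, with the knockout arrays between the wild-type arrays, thus depends on the probe.

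Promoter sequences of 4 members with knockout 1 highest and knockout 2 lowest, and of 1 with another order of arrays, are shown so that their bases can be set side by side. RefSeq windows of 250 bases before the start (assembly GRCm38.p6) were at hand for 8 of the 10 genes, 10 windows in all, with 3 for Espn and none for Eps8 and Myo7b. The windows of Pls1 and Cdhr5, with the widest knockout gaps, of Vil1 and Cdhr2, with narrower ones, and of Myo1a, with knockout 1 below knockout 2, are written below from 5′ to 3′ on the gene's strand. Pls1 lies at chr9:95845280-95845529 (minus strand), Cdhr5 at chr7:141276787-141277036 (minus strand), Vil1 at chr1:74409134-74409383 (plus strand), Cdhr2 at chr13:54701213-54701462 (plus strand) and Myo1a at chr10:127705006-127705255 (plus strand). Capitals mark matches to motifs of factors known in enterocytes.
Pls1: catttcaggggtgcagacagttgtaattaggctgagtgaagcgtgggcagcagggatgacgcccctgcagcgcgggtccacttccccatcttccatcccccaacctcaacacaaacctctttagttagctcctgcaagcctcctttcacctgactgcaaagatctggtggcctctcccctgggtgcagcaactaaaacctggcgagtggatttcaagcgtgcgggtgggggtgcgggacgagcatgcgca
Cdhr5: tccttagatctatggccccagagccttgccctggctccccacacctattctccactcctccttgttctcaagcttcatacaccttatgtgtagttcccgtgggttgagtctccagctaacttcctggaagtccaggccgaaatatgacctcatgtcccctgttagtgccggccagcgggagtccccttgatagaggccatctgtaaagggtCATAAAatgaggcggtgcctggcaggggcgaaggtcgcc
Vil1: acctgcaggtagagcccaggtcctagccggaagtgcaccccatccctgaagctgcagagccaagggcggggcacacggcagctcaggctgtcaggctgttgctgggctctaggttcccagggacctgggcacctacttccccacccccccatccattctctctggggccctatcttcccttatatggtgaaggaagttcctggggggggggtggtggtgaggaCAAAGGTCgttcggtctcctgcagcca
Cdhr2: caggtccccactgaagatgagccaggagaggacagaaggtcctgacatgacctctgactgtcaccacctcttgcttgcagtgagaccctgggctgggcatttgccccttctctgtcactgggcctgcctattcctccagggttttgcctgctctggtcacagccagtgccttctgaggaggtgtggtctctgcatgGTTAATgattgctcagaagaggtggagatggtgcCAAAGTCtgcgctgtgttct
Myo1a: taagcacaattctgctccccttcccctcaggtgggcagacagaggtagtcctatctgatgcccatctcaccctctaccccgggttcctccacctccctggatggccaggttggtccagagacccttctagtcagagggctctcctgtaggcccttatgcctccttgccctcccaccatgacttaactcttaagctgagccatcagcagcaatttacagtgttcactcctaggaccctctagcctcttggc

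The motifs were chosen with these sequences in view and were searched on both strands, and no matches of different motifs overlapped in the windows of the members. They were CAAAGTC for HNF4, which 3.84% of 32851 mouse windows of 250 bases hold, the related CAAAGGTC for nuclear receptors, which 1.01% hold, then GTTAAT for HNF1 with 6.43%, further TTTATG for CDX factors with 10.8%, and last AGATAA for GATA factors with 9.99%. Cdhr2 held the HNF4 letters at -20 to -14 and the HNF1 letters at -54 to -49, counted from the start. Vil1 held the nuclear receptor letters at -27 to -20, and Cdhr5 the CDX letters on the other strand at -39 to -34. Of the 3 Espn windows, 1 held the CDX letters at -196 to -191. The windows shown of Pls1 and Myo1a held none of these letters, nor did those of Ush1c and Ezr. A match is a description of letters and no evidence of binding. The windows' GC content was between 55.6% in Cdhr5 and 67.2% in Ezr, and the median of all windows was 52.4%.

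Both partners of the adhesion complex that were not members had the same order of arrays as the protocadherins. Anks4b, the scaffold that joins MYO7B to harmonin, read 1.56 on wild type 1, 1.25 on wild type 2, 2.26 on knockout 1 and 1.09 on knockout 2. Calml4, the light chain of MYO7B, read 3.74, 3.36, 4.72 and 3.08 in the same order. Knockout 1 was highest and knockout 2 lowest for both genes. Their differences between genotypes were 0.27 (SE 0.43) and 0.35 (SE 0.55), with limma's adjusted p = 1.00 for each.

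Of 89 further genes of the brush border and its regulators in 6 lists by role, 87 were tested. None was called in either direction, against 6 of 14395 over all genes. None had limma's unadjusted p under 0.05, against 63 of 14395, so such counts are near those of all genes. The median difference of the 87 genes was 0.094, with 66 positive and 21 negative differences, while over all genes 8096 of 14395 were positive. Both knockout arrays were above both wild-type arrays for 5 of the 87 genes, against 8.66% of all genes. They were below both for 3, against 6.09%. The 20 further genes of bundling, filament tips and actin nucleation had a median of 0.035 on knockout 1 and 0.065 on knockout 2, relative to each gene's wild-type mean. Knockout 1 was above both wild-type arrays for 7 of these 20 genes, near the 37.9% of all genes. Among them, Lcp1, the plastin of blood cells, had a difference of -0.34, Twf1, which binds actin monomers, one of 0.30, and Tmod3, which caps filament ends, one of 0.25.

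Linkers and scaffolds at the membrane had medians of 0.10 on knockout 1 and -0.19 on knockout 2 over 14 tested genes of 15. Slc9a3r2, a scaffold that anchors transporters to ezrin, had the largest difference of the wider lists in size. It read 0.62 on wild type 1, 0.89 on wild type 2, -0.81 on knockout 1 and 0.59 on knockout 2. Both knockout arrays were below both wild-type arrays, as for 6.09% of all genes, knockout 2 only just (0.59 against 0.62 on wild type 1). The difference was -0.87 (SE 0.48, limma's unadjusted p = 0.121 and adjusted p = 1.00). Prom1, a protein of membrane protrusions, read 5.51, 5.97, 4.12 and 6.00 in the same order, low on knockout 1 alone. Rdx, the ezrin relative radixin, had a difference of -0.31 with both knockout arrays below the wild type.

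Genes of the terminal web, the layer of actin, myosin and keratin in which the cores are rooted, had medians of 0.14 on knockout 1 and 0.13 on knockout 2 over 15 tested genes of 16. Krt19, an epithelial keratin, and Myl12b, a myosin light chain, each had a difference of 0.27, and Actn1, which cross-links actin, had one of -0.23. This list holds Krt8, Krt18 and Krt19, which are also pan-epithelial markers, and Mylk, which is also a smooth muscle marker. Genes that carry cargo to the apical membrane or set polarity had medians of 0.28 and -0.11, with 13 of 20 genes on knockout 1 above the wild-type range, against 37.9% of all genes. In that list Vamp7, a fusion protein of vesicles, had a difference of 0.34, Cab39, a partner of the polarity kinase LKB1, one of 0.23, and the kinase Stk26 one of -0.47.

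Of the 6 lists, regulators of the enterocyte programme had the medians closest to those of the members, with medians of 0.65 on knockout 1 and -0.13 on knockout 2, where the members had 0.58 and -0.40. Among these 16 genes, knockout 1 exceeded the wild-type range for 13, against 37.9% of all genes, and knockout 2 was under it for 7, against 26.6%. Hnf4g, one of the HNF4 factors, read 1.33 on wild type 1, 0.64 on wild type 2, 2.55 on knockout 1 and 0.81 on knockout 2, with a difference of 0.69 (SE 0.59). Cdx1, a factor of intestinal identity, read 3.30, 2.62, 3.68 and 3.21 in the same order, with a difference of 0.49. Elf3, an epithelial factor that is also a pan-epithelial marker, had a difference of 0.41 and limma's adjusted p = 1.00. Both its knockout arrays were above the wild type, as for 8.66% of all genes, knockout 2 only just (2.43 against 2.40 on wild type 2).

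**Figure D4:**
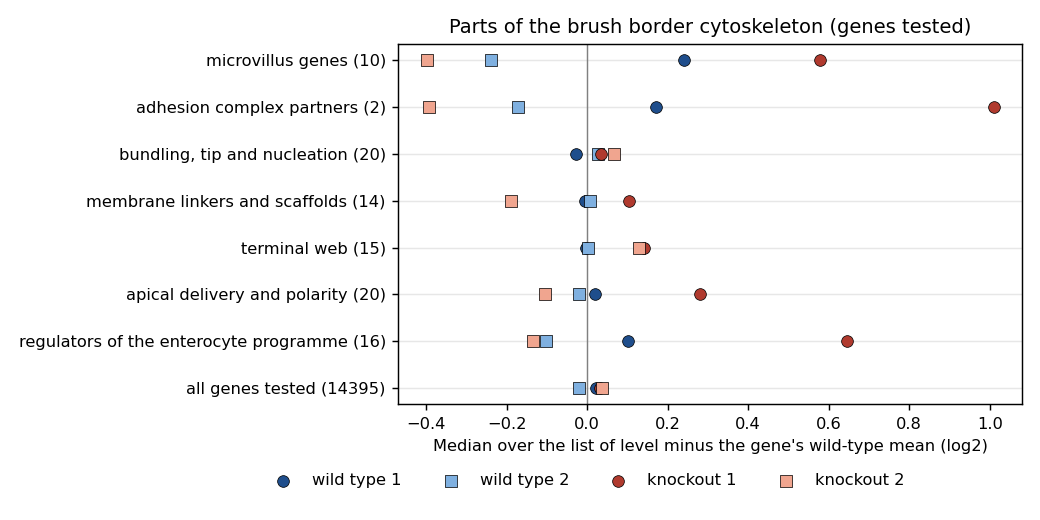
Median over each list of the level minus the gene's wild-type mean (log2, horizontal axis), 1 point per array, with the number of genes tested in brackets. Knockout 1 stands to the right and knockout 2 to the left for the microvillus genes (0.58 and -0.40) and the adhesion complex partners (1.01 and -0.39), whereas both lie near 0 over all genes (0.032 and 0.036).

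The plot of list medians sets the 10 genes beside the other parts of the brush border. For the further bundling genes and the terminal web, the medians of the knockout arrays were close to each other, while single genes differed both ways. In the bundling list the gap, knockout 1 minus knockout 2, was -1.76 for Avil and 0.97 for Eps8l3, both named after their values were seen. Avil is also on the list of tuft cell markers. The partner list has 2 genes, so its median is the mean of those.

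The gap between knockout 1 and knockout 2 was also taken relative to the median of a marker list on the same arrays, which subtracts 1 amount from the gap of every gene. Relative to the pan-epithelial markers, the gap was positive for 7 of the 10 genes, and the widest were those of Pls1 with 1.72, Cdhr5 with 1.47 and Eps8 with 1.06. Myo1a, Ezr and Ush1c had negative gaps of -0.73, -0.39 and -0.18 on that scale. Relative to the absorptive enterocyte markers, the gap was positive for 3 genes, Pls1 with 0.83, Cdhr5 with 0.58 and Eps8 with 0.17. The other 7 genes had negative gaps there, from -0.15 for Vil1 to -1.62 for Myo1a. Thus Pls1, Cdhr5 and Eps8 differed between the knockout arrays by more than the median of either marker list, and Myo1a, Ezr and Ush1c by less.

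**Figure D5:**
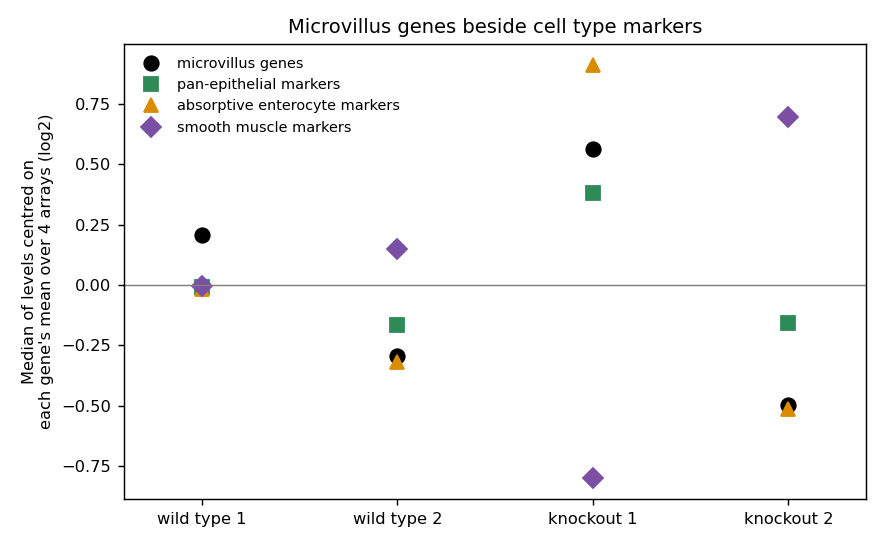
Median, on each array, of levels centred on each gene's mean over the 4 arrays (log2, vertical axis), for the 10 microvillus genes and for markers of epithelium, absorptive enterocytes and smooth muscle. On knockout 1 the microvillus genes are at 0.56, the enterocyte markers at 0.91 and the smooth muscle markers at -0.80, and on knockout 2 they are at -0.50, -0.51 and 0.70.

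The plot of centred medians shows the microvillus genes and the enterocyte markers on the same side of 0 on both knockout arrays, with smooth muscle opposite. Fabp1, which binds fatty acids in enterocytes, read 8.06 on wild type 1, 7.52 on wild type 2, 8.61 on knockout 1 and 7.44 on knockout 2, in the order of Vil1. Fabp2, its intestinal relative, read 8.86, 8.18, 8.77 and 8.54 in the same order of arrays, with wild type 1 highest and wild type 2 lowest as for Myo1a. The smooth muscle genes Tagln (5.67, 5.93, 4.88 and 6.59) and Acta2 (5.46, 5.75, 4.52 and 6.16) were lowest on knockout 1 and highest on knockout 2. The brightest pan-epithelial marker, Krt18 (6.32, 6.61, 5.91 and 6.95), had that order too. The next brightest, Cldn7 (6.26, 5.75, 6.65 and 6.01), was highest on knockout 1. In that list, knockout 1 exceeded knockout 2 for 8 of 10 genes. Knockout 1 minus knockout 2 had a median of -1.51 over the smooth muscle list and of 1.50 over the enterocyte list. With the arrays scaled by pan-epithelial markers these were -2.05 and 0.96.

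Other marker lists moved less evenly, given here as the median on knockout 1 and then on knockout 2 relative to each gene's wild-type mean. Goblet cell markers had 0.81 and -0.036, Paneth cell markers -0.10 and 0.091, enteroendocrine markers 0.54 and -0.21, and tuft cell markers 0.39 and -0.18. Crypt and cycling markers had 0.0065 and 0.33. Fibroblast markers had -0.59 and 0.21, endothelial markers -0.22 and -0.19, neuron and glia markers -0.71 and -0.19, and immune markers -0.025 and -0.53. For liver and pancreas, 5 of 9 markers were tested, with -1.74 and 0.24 and summed levels between 0.937 and 9.80. Their part in the values of the microvillus genes was not tested.

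By distance between centred values over the 4 arrays, the 5 genes outside the list closest to the members' median profile were Nfil3 (root mean square distance 0.027), a transcription factor, Idua (0.027), a lysosomal enzyme, 9430038I01Rik (0.030), Cyp4f17 (0.033), a P450 outside the deleted cluster, and Fbxo31 (0.034), an F-box protein. As they were picked by that distance, their shared order of arrays follows from the choice. It had knockout 1 highest, then wild type 1, wild type 2 and knockout 2, as for Vil1, Cdhr2, Cdhr5 and Myo7b. With 4 arrays, likeness of this kind rests on 4 values per gene.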

How the data were processed

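Scanner images went through Agilent Feature Extraction 11.5.1.1, according to the submitters' processing notes. In the authors' deposited scanner files a spot's intensity had its background subtracted and was detrended, with no scaling between arrays, per the file headers. The authors' processed table holds log2 values, which over 39408 probes matched the log2 signal after subtraction of the 75th percentile of the array and of the probe's median (r = 1.00, all within 0.01). The wild-type columns had medians of 0.053 and -0.10, and the knockout columns -0.11 and 0.12. It keeps differences but no levels, and was used as an alternative.

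Control and outlier spots were left out (91 to 129 outliers per array), and no probe was saturated. Of 39429 probes, 28025 matched 1 symbol by accession in RefSeq's GRCm38.p6 table. A probe was kept if 2 or more of the 4 arrays showed it well above background, and the brightest probe stood for a gene. On an array, between 55.1% and 64.4% of probes were well above background. Log2 signal minus the array's 75th percentile was compared with lmFit and eBayes (intensity trend; limma 3.58.1, R 4.3.3), Benjamini-Hochberg adjusted over 14395 genes, at a threshold of 0.05.

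Members and lists were chosen with earlier results of these data known. Every member is named, of each wider list up to 3 genes of smallest unadjusted p, of markers the 2 brightest per list or fewer, the 5 tested genes of nearest profile, and Cyp3a11. The alternatives were other background corrections, scalings, filters, probe rules and variance settings, a replicate block, the shared slide, and leaving out each array.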

Additional observations from a re-analysis of the deposited data

How the results depend on the processing

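No member was called under any alternative except without knockout replicate 2, where 1 was (Pls1), so the count ran from 0 to 1 over the fits that left out 1 array, with the lone array of a genotype assumed to vary like the others. In those fits 3 to 7 members had genotypes that did not overlap (4 without wild type 1, 3 without wild type 2, 6 without knockout 1 and 7 without knockout 2, against 53.4%, 43.5%, 60.3% and 72.3% of all genes, so these counts lie near or under the background), and the differences ran from -0.35 to 0.93 for Vil1, -0.31 to 0.53 for Espn, -0.61 to 0.98 for Eps8, -0.37 to 0.59 for Myo1a, -0.71 to 1.55 for Pls1, -0.45 to 0.64 for Cdhr2, -0.75 to 1.26 for Cdhr5, -0.36 to 0.38 for Ush1c, -0.24 to 0.28 for Ezr and -0.58 to 0.51 for Myo7b. Within the shared slide the members' median was 0.84 and Myo7b was 0.83, without a test. Signs also turned for Ush1c (-0.0074) and Ezr (-0.020) after normexp, for Myo1a (-0.023), Ush1c (-0.083) and Ezr (-0.11) after quantile normalization, for Myo7b (0.026) with array medians and for Ush1c (-0.29) with the mean of its probes. Scaling by pan-epithelial markers moved the median of all genes from 0.037 to -0.16. On that scale Espn (-0.086), Eps8 (-0.013), Myo1a (-0.086), Cdhr2 (-0.10), Ush1c (-0.19) and Ezr (-0.18) turned negative, and Myo7b stayed negative (-0.23). Scaling by absorptive enterocyte markers, an alternative chosen after seeing the data, moved the median of all genes to -0.33. There 2 members did not overlap, against 4.9% of all genes. Vil1 (-0.075), Espn (-0.26), Eps8 (-0.18), Myo1a (-0.26), Cdhr2 (-0.27), Cdhr5 (-0.11), Ush1c (-0.36) and Ezr (-0.35) turned negative, and Myo7b stayed negative (-0.40). The cause of these turns was not tested, other than the shift of all genes.

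The replicate numbers were not shown to pair the samples (correlation of deviations 0.05), and with a replicate block 0 members and 32 genes in all were called (6 higher, 26 lower) against 6. Over all genes, 0 were called with the filter on all 4 arrays or without either wild-type array, 12 without knockout 1 (2 higher, 10 lower) and 433 without knockout 2 (135 higher, 298 lower). For normexp, 6 spots of knockout 2 with a local background above their signal were given the array's median background, a step chosen after seeing the data. All members were well above background on all 4 arrays, but 2 arrays per genotype limit what can be said of them. Knockout 2 had the lowest 75th percentile signal (175), and the part of array brightness in the members' values was not tested.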
